A study of Homo sapiens with 16 samples.

Results

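Exon-level probe sets of 29 genes on the short arm of chromosome 9 (9p) were described in gene order. The genes form 2 stretches of neighbours: 15 genes from DOCK8 to LURAP1L and 14 genes from PLAA to NOL6. CD274 and PDCD1LG2, which encode the PD-1 ligands, lie within the first stretch. Between the stretches lie 48 other measured genes. A probe set was taken when its only gene symbol was that of a member, which gave 461 of 224320 probe sets with 1 symbol (241 in the first stretch and 220 in the second). The genes had been chosen by how they differed between arrays labelled induced and arrays labelled uninduced, so that difference is given here as a description, with no test for any member.

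Per the labels, all RNA came from the Hodgkin lymphoma line L1236, an established human line. All cells of both groups had been infected on consecutive days with a retrovirus carrying a short hairpin RNA against RELB, a subunit of the alternative NF-kB pathway. The uninduced group received nothing further, and the induced group received doxycycline, which switches the hairpin on. No uninfected or control-hairpin group was among the samples used here, and the doxycycline dose and time are not given in the labels. Each group holds 4 arrays. Their titles carry 2 codes of unstated meaning, a B code of B_1 or B_4 and a last number of 1 or 4, and every combination occurs once in each group; replicates 1 and 2 are B_1, and 3 and 4 are B_4. The 16 samples are these 8 arrays summarised at gene level and at exon level, since 4428 of 4428 features present in both tables were identical. The labels do not say whether the arrays within a group are from separate cultures; the spread on which p-values rest may therefore be technical.

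In Hodgkin and Reed-Sternberg cells, the malignant B-lineage cells of classical Hodgkin lymphoma, gains of the end of 9p are a known lesion. The gained segment can carry the kinase gene JAK2 with CD274 and PDCD1LG2, through which the tumour cells restrain T cells, and it often takes in neighbours such as KDM4C. The genes described here have no common pathway: they encode chromatin enzymes, chaperones, mitochondrial and iron enzymes, splicing and ribosome factors, and share only their place on the chromosome.

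Values are log2 signals, so a difference of 1 is a 2-fold change of signal. A gene's value in an array averages all of its exon-level probe sets. Probe sets carry serial identifiers, which fell into 2 runs: 13 genes between 8153960 and 8154822, and 16 genes between 8159877 and 8160711. Within each run the genes followed RefSeq gene order in 12 of 12 and 15 of 15 neighbouring pairs. The first run held plus-strand genes (11 of 11 with a RefSeq strand) and the second minus-strand genes (15 of 15). Order within a gene is by identifier below; no source used here gives the exon or position of a probe set.

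Promoter windows of 3 members are shown because these genes are the largest fall (ACO1), the largest rise (DOCK8) and, with DOCK8, the pair on either side of the largest step between neighbouring members (KANK1). Each window runs from 250 bases before to 50 bases after the start given by RefSeq on GRCh38.p14, is written 5′ to 3′ on the strand of the gene, and has its CG pairs in capitals. The windows are chr9:32384393-32384692 (plus strand) for ACO1, chr9:214615-214914 (plus strand) for DOCK8 and chr9:706803-707102 (plus strand) for KANK1.
ACO1: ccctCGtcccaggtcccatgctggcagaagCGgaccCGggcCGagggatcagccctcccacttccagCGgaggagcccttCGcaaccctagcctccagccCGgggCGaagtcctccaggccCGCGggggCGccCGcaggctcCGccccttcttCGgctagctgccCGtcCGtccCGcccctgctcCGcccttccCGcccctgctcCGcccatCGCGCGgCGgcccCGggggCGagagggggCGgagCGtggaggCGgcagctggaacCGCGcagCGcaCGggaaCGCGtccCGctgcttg
DOCK8: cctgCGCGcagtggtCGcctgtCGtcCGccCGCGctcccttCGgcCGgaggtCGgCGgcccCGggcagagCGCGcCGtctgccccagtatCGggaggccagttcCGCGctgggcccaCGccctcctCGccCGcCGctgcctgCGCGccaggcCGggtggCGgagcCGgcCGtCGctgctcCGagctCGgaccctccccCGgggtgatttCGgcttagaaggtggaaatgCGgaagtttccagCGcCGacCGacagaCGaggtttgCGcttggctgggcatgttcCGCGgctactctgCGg
KANK1: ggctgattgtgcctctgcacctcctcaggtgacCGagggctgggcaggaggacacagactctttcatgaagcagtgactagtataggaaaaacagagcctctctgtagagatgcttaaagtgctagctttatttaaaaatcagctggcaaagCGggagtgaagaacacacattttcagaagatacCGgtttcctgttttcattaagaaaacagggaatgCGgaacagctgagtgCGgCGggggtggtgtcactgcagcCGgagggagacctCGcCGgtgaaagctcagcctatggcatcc
The ACO1 and DOCK8 windows hold 36 and 42 CG pairs and the KANK1 window 9. ACO1 and DOCK8, which moved furthest in opposite directions, thus both have CG-rich windows. Of the 29 members, 26 had a window in the RefSeq table (CDC37L1, SMU1 and NFX1 did not), with a median of 24 CG pairs against 14 over 27305 windows. The letters GGGNNTTTC, part of a form of the NF-kB site, were found on either strand in ERMP1 and B4GALT1 and in 4.73% of all windows. TTCNNNGAA, the core of a STAT site, was in 0 of the 26 and in 7.88% of all windows. TATAAA was in AK3, LURAP1L and AQP3 and in 12.0% of all windows. These matches are descriptions of letters; no factor binding was measured.

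RELB, the target of the hairpin, did not bear out the labels. Averaged over its exon-level probe sets, RELB signal was 7.52, 7.52, 7.81 and 7.66 in the arrays labelled uninduced and 7.64, 7.53, 7.53 and 7.36 in the arrays labelled induced. The difference was -0.11 (7.63 ± 0.14 against 7.51 ± 0.12, SD, n = 4 each; exact permutation test, two-sided, p = 0.286, where 0.0286 is the smallest p possible). Every direction below therefore rests on the labels alone. Of 10 Hodgkin cell markers, 8 lay above the median of all gene means (6.24) in the arrays labelled uninduced and 6 in the arrays labelled induced. Their summed level overlapped (log2 of the sum 12.08 to 12.26 and 12.12 to 12.39), but single markers moved far in both directions. GATA3 differed by -4.70, BATF3 and ID2 by -3.46 each, FSCN1 by -2.49 and CCL22 by -1.49. TNFRSF8, which encodes CD30, differed by 4.40, TRAF1 by 2.16, IRF4 by 0.84, CD70 by 0.22 and CCL17 by 0.06. The summed level of 6 B-cell markers (log2 of the sum) was 9.29 to 9.34 in the uninduced and 12.09 to 12.47 in the induced arrays. Of the 6, 2 lay above the all-gene median in the uninduced and 4 in the induced arrays. CD79A stood at 5.33 and 9.85, CD22 at 6.27 and 10.14, PAX5 at 8.62 and 11.48 and BLNK at 5.79 and 7.75. MS4A1 stood at 3.98 and 4.18 and CD79B at 5.74 and 5.62. The summed levels of 7 T-cell (8.30 to 8.51 and 8.25 to 8.63), 6 myeloid (8.03 to 8.05 and 8.01 to 8.16) and 5 fibroblast markers (7.68 to 7.87 and 7.65 to 7.85) overlapped between the groups, with 1 marker of each list above the all-gene median: CD7, TYROBP and COL1A1. The part of these marker differences in the differences below was not tested. The labels name L1236 for both groups; whether the cells of both groups had the same identity was not tested, and that limits what every label difference means.

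Most of the 29 members had a lower signal under the induced label. The gene mean was below 0 for 23 and above 0 for 6, and 26 differed in the same direction in all 4 pairs of arrays with the same codes. The share of all genes that did so was not counted, so nothing is read from the 26. The median difference of the member genes was -0.69, against 0.04 over all 18656 genes. At least 1 log2 lower were 11 genes (37.9%, against 7.85% of all genes), and at least 1 log2 higher were 3 (10.3%, against 5.6%). Both sets of members had this shape: 12 of 15 genes were below 0 in the first stretch (median -0.43) and 11 of 14 in the second (median -0.73). The measured genes that lie within the stretches but are not members were closer to 0. In the first stretch these were 26 genes with a median of -0.07, 17 below 0 and 6 lower by at least 1 log2. In the second they were 12 genes with a median of -0.11, 9 below 0 and 1 lower by at least 1 log2. Of the 461 probe sets, 334 (72.5%) were below 0, against 48.0% of all 224320. A gene in an RNA measurement of bulk cells can be lower because fewer cells express it or because each cell holds less of its RNA, and these cannot be told apart here.

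**Figure D1:**
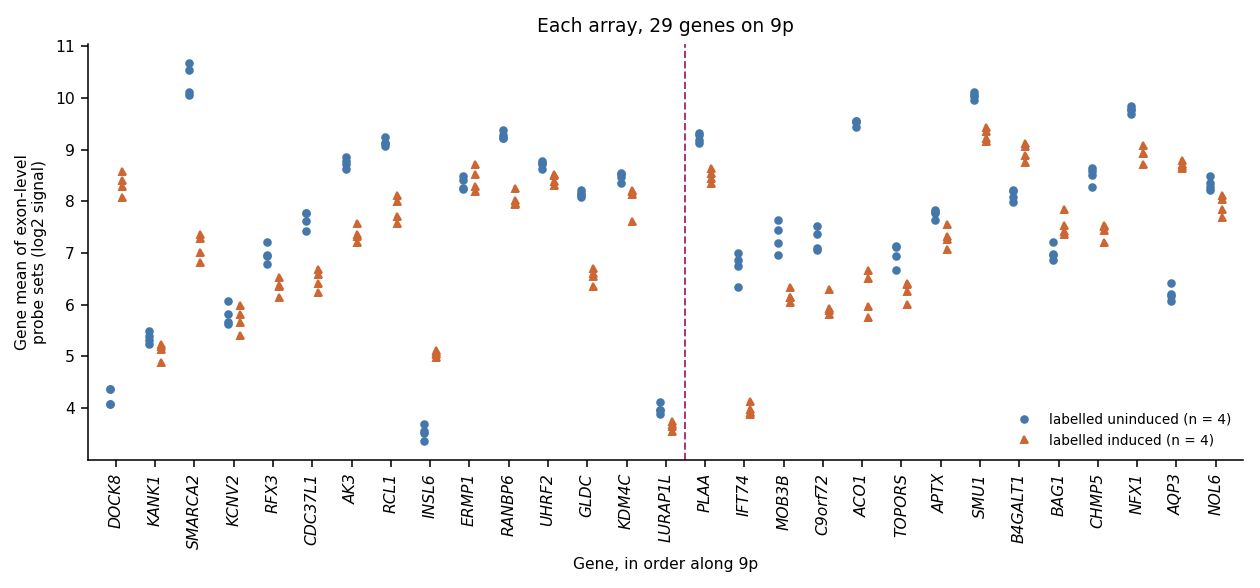
Gene mean of exon-level probe sets (log2 signal, vertical axis) for the 29 genes in order along 9p; blue circles are the 4 arrays labelled uninduced, orange triangles the 4 labelled induced, and the dashed line separates the 2 stretches. ACO1, SMARCA2 and IFT74 drop by more than the spread of either group, and DOCK8 and AQP3 rise.

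For calls, probe sets dimmer on average than the 25th percentile (4.77) were set aside, which left 420 member probe sets of the 168240 fitted. Among the 420, the 4 induced values all lay below the 4 uninduced values in 224 (53.3%, against a background of 18.1% of all fitted probe sets) and all above in 69 (16.4%, against 18.5%). By limma at an adjusted p under 0.05, 221 were lower (background 17.5%) and 72 higher (background 17.9%). As gene means, 27 members passed the same filter (4.95), of which 20 were lower (background 28.4%) and 4 higher (background 28%); INSL6 and LURAP1L were too dim and have no standard error. A gene that is bright in only 1 group can pass this filter through that group, as DOCK8 did, and the members were selected on this contrast, so nothing is read from these counts.

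The largest fall was that of ACO1, which encodes cytosolic aconitase, the protein that without its iron-sulphur cluster becomes the iron regulatory protein IRP1. It stood at 9.55, 9.56, 9.54 and 9.43 in the arrays labelled uninduced and at 6.52, 5.97, 5.76 and 6.67 in the arrays labelled induced, a difference of -3.29 ± 0.18 (SE, n = 4 per group) or 9.77-fold. The uninduced arrays lay within 0.2 log2 of each other, whereas the induced arrays were more spread, and the groups did not come near each other. SMARCA2, the BRM ATPase of SWI/SNF chromatin remodelling complexes, stood at 10.68, 10.54, 10.11 and 10.06 in the uninduced and at 7.29, 7.36, 6.83 and 7.02 in the induced arrays (-3.23 ± 0.09, 9.36-fold). In both groups the B_4 arrays, replicates 3 and 4, were the lower ones. IFT74, a subunit of the intraflagellar transport machinery of cilia, stood at 7.0, 6.87, 6.74 and 6.34 in the uninduced and at 4.13, 3.88, 3.93 and 3.99 in the induced arrays (-2.75 ± 0.11, 6.74-fold). Its induced values lay below the filter level of gene means.

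These 3 falls ran through nearly all probe sets of each gene. All 40 probe sets of SMARCA2 were lower, 37 by at least 1 log2, from -0.11 in probe set 8154060 to -4.78 in 8154081. All 21 of IFT74 were lower, 20 by at least 1 log2, from -0.60 (8154671) to -4.42 (8154678). In ACO1, 22 of 24 were lower by at least 1 log2, the furthest being 8154740 at -4.78. In that probe set the uninduced arrays read 10.72, 10.74, 10.70 and 10.45 and the induced arrays 6.38, 5.81, 4.70 and 6.58.

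A second tier fell by 1 to 1.6 log2. GLDC, the glycine decarboxylase of the mitochondrial glycine cleavage system, stood at 8.09, 8.17, 8.13 and 8.21 in the uninduced and at 6.62, 6.36, 6.71 and 6.55 in the induced arrays (-1.59 ± 0.09). AK3, a mitochondrial adenylate kinase (-1.38 ± 0.10), RCL1, an endonuclease of ribosomal RNA processing (-1.28 ± 0.10), and CDC37L1, a relative of the HSP90 co-chaperone CDC37 (-1.17 ± 0.09), are close neighbours on the JAK2 side of the first stretch. Their differences lay within 0.21 log2 of each other. RANBP6, of the importin family (-1.23 ± 0.09), lay beyond the PD-1 ligand genes and fell by a like amount, with its 3 probe sets between -1.36 and -1.10.

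In the second stretch the same tier held C9orf72, whose product acts in a complex with SMCR8 in autophagy and membrane traffic (-1.27 ± 0.11), MOB3B, of the MOB kinase activator family (-1.14 ± 0.13), and CHMP5, an ESCRT-III protein (-1.07 ± 0.11). In MOB3B the uninduced arrays of the B_4 code were the higher ones (7.20, 6.97, 7.63 and 7.45), while the induced arrays lay together (6.15, 6.34, 6.15 and 6.05). CHMP5 was the member just past 1 log2, and NFX1, a zinc-finger protein that binds the X box of MHC class II promoters, was the one just short of it (-0.85 ± 0.09). All 29 probe sets of NFX1 were below 0, between -1.28 and -0.10, and 1 was flat. The groups did not overlap in 24 of them (background 18.1% of all fitted probe sets apart and lower).

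The remaining lower genes differed by less. SMU1, a splicing factor (-0.74 ± 0.09), PLAA, a ubiquitin-binding partner of the p97 ATPase (-0.72 ± 0.10), TOPORS, a ubiquitin and SUMO ligase (-0.69 ± 0.12), and RFX3, a transcription factor of ciliary genes (-0.62 ± 0.10), had no overlap between the groups. The same held for APTX, which repairs blocked DNA ends (-0.45 ± 0.10), KDM4C, a histone H3 lysine demethylase (-0.43 ± 0.12), NOL6, a nucleolar protein of ribosome assembly (-0.40 ± 0.09), and UHRF2, a ubiquitin ligase that binds modified DNA (-0.28 ± 0.08). All 29 probe sets of NOL6 were below 0 as well. Only 4 of them had groups that did not overlap (background 18.1% of all fitted probe sets apart and lower). The NOL6 difference was -0.24 with the median signal of the probe sets in each array in place of the mean. The median of its probe-set differences was -0.39. LURAP1L was dim in both groups (3.97, 3.89, 3.97 and 4.12 against 3.75, 3.70, 3.66 and 3.56, a difference of -0.32, or -0.19 in the gene-level table).

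Of the 29 members, 6 went against the common direction; for 5 of these the groups did not overlap (5 of 29, against 20.5% of all genes apart and higher). Of all 29 members, 21 had groups that did not overlap with the induced arrays lower (against 20.9% of all genes apart and lower). DOCK8, an exchange factor for the GTPase CDC42 whose loss causes an immunodeficiency, showed the largest rise. It stood at 4.36, 4.08, 4.08 and 4.36 in the uninduced and at 8.58, 8.42, 8.08 and 8.29 in the induced arrays (4.12 ± 0.12, 17.4-fold). The uninduced values lie below the filter level, so the size of the rise depends on how RMA treats dim signals. All 52 of its probe sets were higher, 51 by at least 1 log2, from 0.98 (8153973) to 7.81 (8153967). In the latter the uninduced arrays read 2.58, 2.77, 3.11 and 2.96 and the induced arrays 11.10, 10.54, 10.58 and 10.44.

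AQP3, a water and glycerol channel, stood at 6.42, 6.07, 6.20 and 6.16 in the uninduced and at 8.65, 8.69, 8.73 and 8.79 in the induced arrays (2.50 ± 0.10, 5.66-fold). B4GALT1, a Golgi galactosyltransferase, stood at 8.20, 8.22, 8.08 and 7.99 against 9.06, 8.90, 8.76 and 9.12 (0.84 ± 0.10), and BAG1, an HSP70 co-chaperone, at 6.98, 6.86, 7.21 and 6.97 against 7.55, 7.37, 7.85 and 7.42 (0.54 ± 0.09). These 3 risers lie near one end of the second stretch, with CHMP5 and NFX1, both lower, between BAG1 and AQP3. INSL6, a relaxin-family peptide, stood at 3.56, 3.37, 3.69 and 3.52 against 4.99, 5.09, 5.05 and 5.12 (1.53, no standard error, and 1.02 in the gene-level table). It has 3 probe sets, and the rise was mostly in 8159974 (4.4, 4.54, 4.4 and 4.05 against 7.45, 7.52, 7.49 and 8.15), while 8159972 did not move (-0.02). Whether these probe sets measure INSL6 alone was not tested.

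In 3 members the groups overlapped. ERMP1, a metallopeptidase of the endoplasmic reticulum, stood at 8.49, 8.41, 8.26 and 8.23 against 8.72, 8.19, 8.30 and 8.52 (0.09 ± 0.12). It counts as the sixth gene above 0, but by less than its own standard error, and the sign turned without induced replicate 4 (-0.02). KANK1, an actin regulator with ankyrin repeats, stood at 5.39, 5.49, 5.32 and 5.23 against 5.15, 5.21, 4.89 and 5.24 (-0.23 ± 0.09), with 10 of 19 probe sets past the filter. Its difference was -0.46 over those 10 alone and -0.81 with the median signal of the probe sets in each array in place of the mean. The median of its 19 probe-set differences was -0.20, and 9 of them lay within 0.3 log2 of 0. KCNV2, a modifying subunit of potassium channels of the retina, had 2 probe sets at -0.10 and -0.05 (-0.07 ± 0.09); its mean difference was 0.00 under quantile normalisation.

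**Figure D2:**
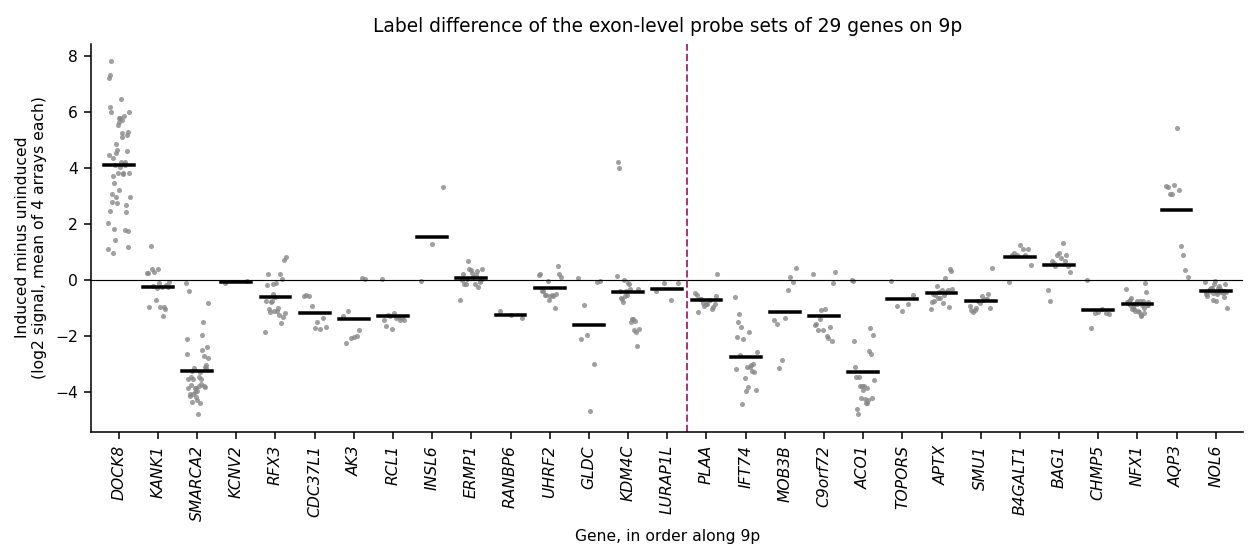
Induced minus uninduced (log2 signal, mean of 4 arrays in each group) for every exon-level probe set (grey points, in identifier order within a gene) and the gene mean (black bars), for 29 genes in order along 9p; the dashed line separates the 2 stretches. DOCK8 rises throughout, SMARCA2, IFT74 and most of ACO1 fall throughout, and KDM4C and AQP3 split within the gene.

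Of 26 genes with enough probe sets, 6 had a sharp edge. An edge is the place in the identifier order where the mean difference before and after changed most, searched over all positions. It counted as sharp at 1 log2 or more, with at least 2 probe sets on each side and ranges that did not overlap. The share of all genes with a sharp edge was not counted, so nothing is read from the 6. KDM4C had the largest sharp edge and the only one with large values on both sides in opposite directions. Its first 3 probe sets averaged 2.79 (0.15 to 4.21) and its other 20 averaged -0.92 (-2.34 to -0.01), a step of -3.71. Probe set 8154335 read 3.97, 3.48, 3.56 and 3.73 in the uninduced and 7.98, 7.87, 7.44 and 8.30 in the induced arrays (4.21 ± 0.23). Next to it, 8154336 read 3.54, 3.24, 3.66 and 2.82 against 7.06, 8.51, 6.90 and 6.86 (4.02 ± 0.37). Both were thus near the floor in one group and well above it in the other, while the first probe set, 8154334, was bright in both (8.50 and 8.64).

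Beyond the edge, 8154337 read 9.92, 9.76, 10.01 and 9.96 against 9.67, 9.73, 9.12 and 9.59 (-0.38 ± 0.18). The KDM4C profile also deepened along the gene, a feature singled out after its values were seen. The 11 probe sets from the 4th to the 14th lay between -0.80 and -0.01, and the 9 from the 15th on between -2.34 (8154354) and -1.38, except the 22nd at -0.32. The gene mean of -0.43 therefore averages parts that moved by different amounts and in different directions. The KDM4C difference was -0.80 when the median signal of the probe sets was taken in each array, and -0.66 in the gene-level table. The median of its probe-set differences was -0.57.

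In ACO1 the edge lay after the second probe set: the first 2 averaged -0.01 and the other 22 averaged -3.59 (-4.78 to -1.72), a step of -3.58. Probe set 8154735, before the edge, read 5.84, 5.17, 4.70 and 4.37 against 3.78, 5.47, 5.22 and 5.54, and 8154736, after it, 9.99, 10.62, 10.27 and 10.38 against 8.22, 8.19, 8.09 and 8.13. Both probe sets before the edge passed the filter, but they were dimmer. Their mean level was 5.73 in the uninduced and 5.72 in the induced arrays, against 9.86 and 6.28 after the edge. Whether probe sets this dim could have shown a fall was not tested. Without its 2 flat probe sets ACO1 would differ by slightly more than its gene mean.

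In AQP3 the first 7 probe sets rose together, averaging 3.56 (3.08 to 5.44), and the last 4 averaged 0.65 (0.12 to 1.22). Probe set 8160676 read 3.75, 3.55, 3.92 and 3.45 in the uninduced and 9.19, 9.55, 9.31 and 8.36 in the induced arrays (5.44 ± 0.25). The last, 8160681, was bright in every array, at 10.51, 10.37, 10.52 and 10.85 against 10.25, 10.88, 10.51 and 11.07. The rise was thus present on both sides of the edge and smaller after it, with 1 flat probe set.

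MOB3B fell in its first 5 probe sets (mean -2.07) and not in its last 4 (mean 0.02), a step of 2.09. With the median signal of its probe sets in each array in place of the mean, the gene differed by -1.80. The median of its probe-set differences was -1.36. Probe set 8160524 read 6.80, 6.11, 7.11 and 6.70 against 4.01, 3.06, 3.88 and 3.26 (-3.13 ± 0.17), whereas 8160529 was near 12.6 in both groups (-0.06 ± 0.16). AK3 fell in its first 7 probe sets (mean -1.79) and not in its last 2 (mean 0.07), of which 8159953 was bright in all arrays (9.49 to 10.54) and 8159956 was too dim to show a fall (2.45 and 2.49). In BAG1 the first 2 probe sets averaged -0.56 and the other 11 averaged 0.74, a step of 1.30. Its highest, 8160656, read 6.50, 7.09, 6.87 and 6.65 against 7.94, 7.73, 8.68 and 8.12, and its lowest, 8160649, read 7.60, 7.95, 8.40 and 8.09 against 7.42, 7.28, 7.81 and 6.53, with overlap.

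**Figure D3:**
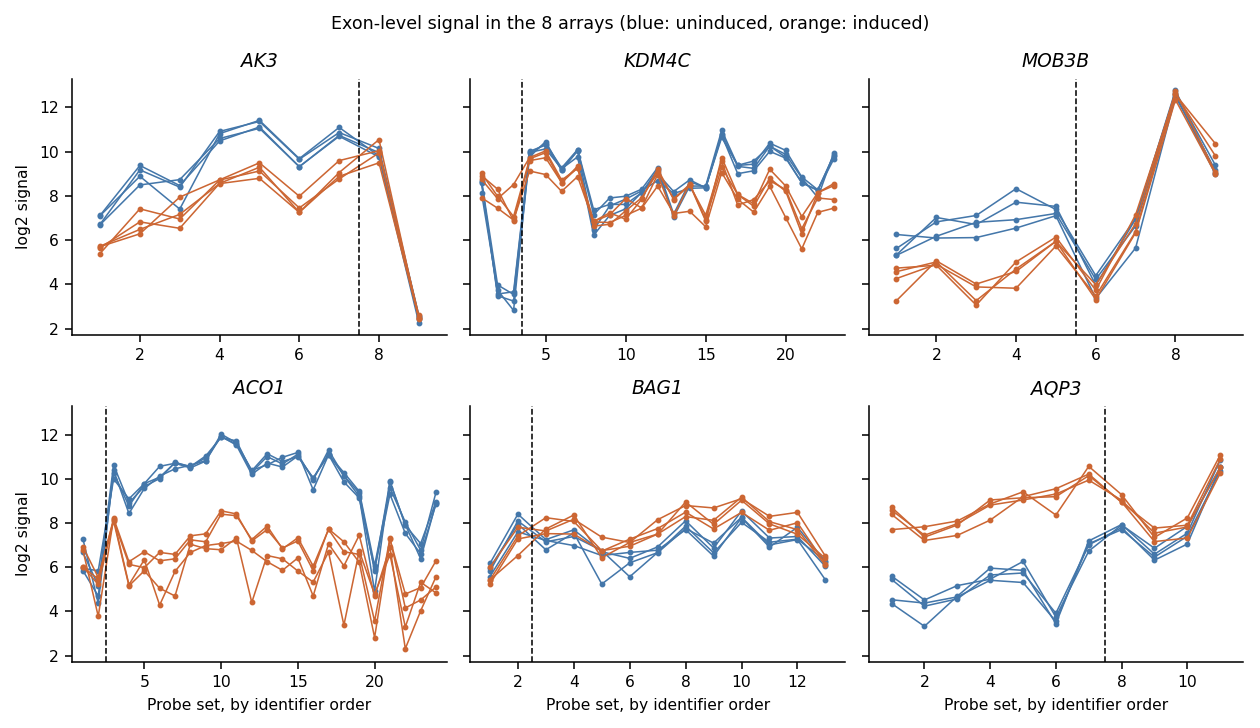
Exon-level log2 signal (vertical axis) of each probe set in identifier order for the 6 genes with a sharp edge, with 1 line per array (blue, 4 labelled uninduced; orange, 4 labelled induced) and a dashed line at the edge. The groups come together on one side of the edge and separate on the other, except in KDM4C, BAG1 and AQP3. In KDM4C the order of the colours turns over, and in AQP3 the rise is smaller after the edge. In BAG1 the mean difference changes sign at the edge, but the groups overlap before it.

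The size rule mattered at its margin. CDC37L1 had sides that did not overlap, a first part of 4 probe sets averaging -0.65 and a second of 5 averaging -1.58, but its step of -0.93 fell short of 1 log2, while BAG1 with 1.30 was just inside. At a size of 2 log2 the count of sharp edges was 4. GLDC missed because its sides overlapped: its probe sets ran from 0.07 (8160025) to -4.68 (8160029), and the last 2 were flat. Probe set 8160029 read 8.69, 8.74, 8.94 and 9.11 against 4.94, 2.87, 5.51 and 3.44, so the induced arrays differed among themselves by over 2 log2. C9orf72 was similar, with 12 probe sets averaging -1.50 before 2 flat ones averaging 0.08, and a single flat dim probe set at its start.

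Across the 11 genes lower by at least 1 log2, 15 of 156 probe sets were flat, within 0.3 log2 of 0. Of these, 3 were under the filter and 12 were past it, among them the bright 8160529 of MOB3B and 8159953 of AK3. KDM4C and KANK1 were the members with probe sets past 1 log2 in both directions, but the KANK1 values are weak: 8154016 (1.21) was under the filter, with uninduced arrays at 2.03 to 3.33 and induced arrays at 3.71 to 4.37, and in 8154026 (-1.30) the groups overlapped.

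Between the members lay measured genes that followed and genes that did not. JAK2, between RCL1 and INSL6, fell from 9.11 to 5.91 (-3.20 ± 0.09), close to the fall of SMARCA2. CD274 fell from 9.74 to 4.35 (-5.39 ± 0.13) and PDCD1LG2 from 9.33 to 4.71 (-4.62 ± 0.09), further than any member. PLGRKT, a plasminogen receptor gene beside them, fell by 1.33 and RIC1 by 0.83, amounts close to those of AK3 and NFX1. RLN2 and RLN1, of the relaxin family like INSL6, were dim in both groups and differed by -0.04 and 0.07. INSL4, of the same family, stood at 4.67 in the uninduced and 5.17 in the induced arrays (0.50). Its groups did not overlap (background 20.5% of all genes apart and higher). RIGI, the RNA sensor gene just after ACO1, differed by -2.61 ± 0.09 and was singled out after its values were seen.

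The stretch between LURAP1L and PLAA held 48 measured genes with a median of -0.11. Of these, 7 were lower and 3 higher by at least 1 log2. The largest were TTC39B (-3.94 ± 0.10), ZDHHC21, a protein acyltransferase (-3.91 ± 0.09), the transcription factor NFIB (-2.24 ± 0.09) and the RNA-binding protein ELAVL2 (-2.08 ± 0.10), followed by CNTLN (-1.95), PLIN2 (-1.80) and CCDC171 (-1.60). The higher ones were MLLT3 (1.94), BNC2 (1.91) and HACD4 (1.64). No measured gene preceded DOCK8. After NOL6, SUGT1P1 differed by -0.73 and ANKRD18B by -1.31, and the 20 measured genes there had a median of -0.38, so the lower values did not stop at the end of the second stretch.

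Over the 135 measured genes of 9p up to that point, the median was -0.24 and 69.6% were below 0. Without the members it was -0.16 (106 genes, 67.0% below 0). On the rest of chromosome 9 the median was 0.13 over 593 genes, with 34.1% below 0, and over all genes 44.7% were below 0. Medians of these sets are given as descriptions, since the members were chosen from them.

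**Figure D4:**
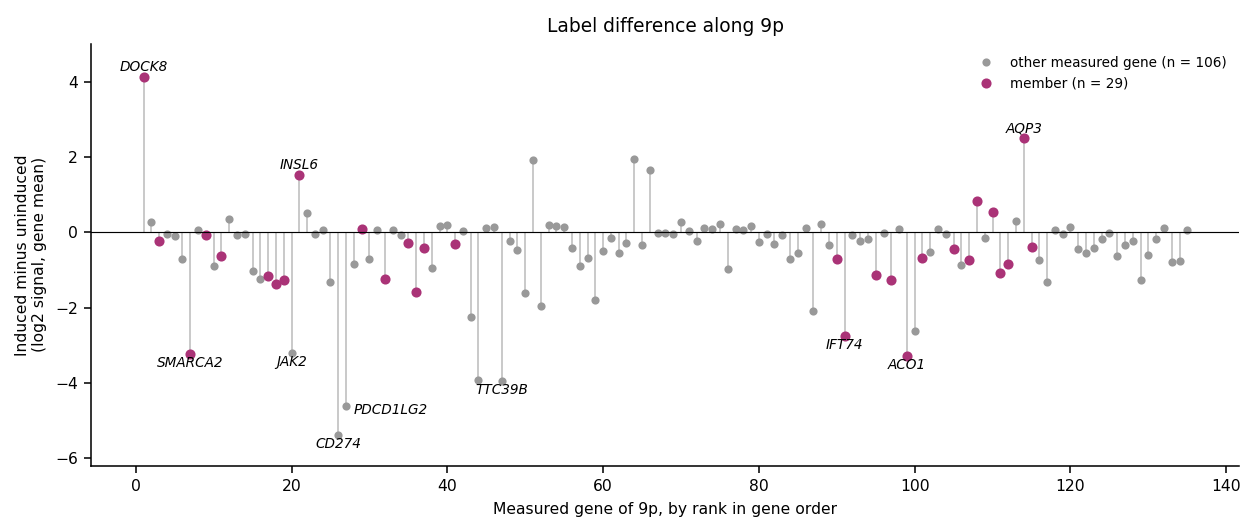
Induced minus uninduced (log2 signal, gene mean) for the 135 measured genes of 9p by rank in RefSeq gene order; purple points are the 29 members and grey points the other 106 genes. Large falls are scattered along the arm, with CD274, PDCD1LG2, TTC39B and ZDHHC21 below the lowest member, and the tallest rises are those of DOCK8 (4.12), at the start of the list, and AQP3 (2.50).

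The difference did not change smoothly from gene to gene. From DOCK8 to KANK1 it stepped by -4.36, from NFX1 to AQP3 by 3.35, from SMARCA2 to KCNV2 by 3.15, from KANK1 to SMARCA2 by -2.99 and from AQP3 to NOL6 by -2.90. The median absolute step between consecutive members was 1.31 over 28 steps, of which 16 (57.1%) were 1 log2 or more and 9 were 2 log2 or more. Between consecutive measured genes it was 0.58 on 9p (35.1% of 134 steps at 1 log2 or more) and 0.39 over all chromosomes (21.2% of 18528). Members skip genes that lie between them and were chosen for their differences, so their steps are not set against the others as a test. The flattest run was from CDC37L1 through AK3 to RCL1, with steps of -0.21 and 0.09.

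The B code and the last number are contrasts that the choice of members did not use, so they were tested. By limma with Benjamini-Hochberg adjustment, 0 of 420 member probe sets passed for the B code, and 40 had an unadjusted p under 0.05 (background 0% called, and 12141 of 168240 unadjusted). For the last number 0 passed and 15 had an unadjusted p under 0.05 (background 0%, and 9367 unadjusted). For the interaction of label and B code 0 passed and 33 were unadjusted (background 0%, and 12330), and for that of label and last number 0 passed and 18 were unadjusted (background 0%, and 6741). The label difference of these probe sets was thus not shown to depend on either code. In simulated data, single probe sets changed by 2 log2 were recovered in 31% of cases for either code and in 0% for the interactions, so the probe-set test could have missed such changes.

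Gene means gave more power: in simulation 97% of 1 log2 changes were recovered for either code, and 35% and 37% for the interactions with B code and last number. Of 27 member genes, 0 passed for the B code, where 0% of all 13992 genes were called. At an unadjusted p under 0.05 there were 3 members (11.1%), against 13.7% of all genes. For the last number 0 passed (0.00715% of all genes called), with 3 members (11.1%) and 7.83% of all genes unadjusted. For the label by B code interaction 0 passed (0.186% of all genes), with 1 member (3.7%) and 12.1% unadjusted, and for that of label and last number 0 passed (0% of all genes), with 1 member (3.7%) and 3.37% unadjusted. SMARCA2 came closest for the B code: B_4 arrays were lower by 0.46 ± 0.09 (limma, adjusted p = 0.207), in all 4 comparisons of arrays with the same label and last number. CDC37L1 was next at -0.29 ± 0.09 (limma, adjusted p = 0.255). KCNV2 led for the last number (0.33 ± 0.09, limma, adjusted p = 0.631), MOB3B for the interaction with B code (-0.60 ± 0.19, limma, adjusted p = 0.262) and RCL1 for that with last number (-0.40 ± 0.17, limma, adjusted p = 1.0). The B code differences ran from -0.46 to 0.22 and the last number differences from -0.24 to 0.33, against label differences from -3.29 to 4.12 in the same 27 genes.

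**Figure D5:**
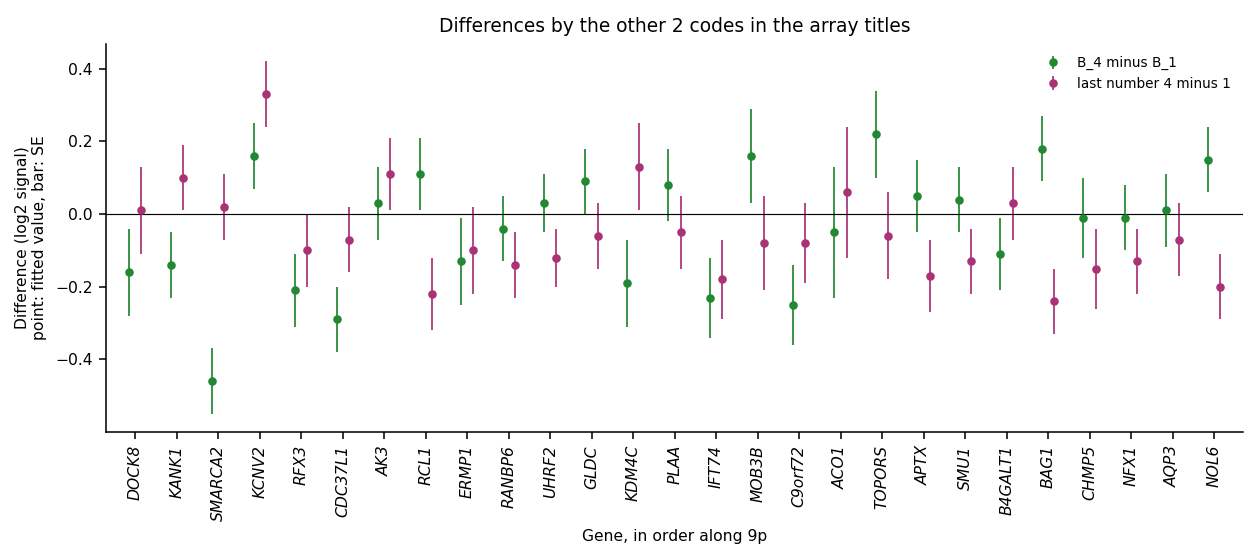
Fitted difference in log2 signal for the 27 member genes that passed the filter, by B code (B_4 minus B_1, green) and by last number (4 minus 1, purple); bars are standard errors from limma over 8 arrays. All points lie between -0.46 (SMARCA2, B code) and 0.33 (KCNV2, last number).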

How the data were processed

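L1236 RNA was hybridised to Affymetrix whole-transcript arrays as sense-strand cDNA, per the labels' protocols. The deposited values are log2 signals made by the authors with RMA and Partek (no versions given), per the submitters' processing notes; their log base is not stated, and 2 was assumed because RMA normally writes it and the values run from 1.88 to 15.13. RMA equalises arrays and compresses dim signals, so a shift of all genes would be removed. The deposited column medians were 6.51 to 6.59. The genome build of the probe sets is not given in the sources used here.

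Probe sets were named from the platform annotation: of 257430, 224320 had 1 symbol, 10159 several and 22951 none. RefSeq (GRCh38.p14) updated 2 member symbols and gave gene order and promoters. Limma 3.58.1 in R 4.3.3 was fitted over all 168240 probe sets, and over 13992 gene means, past a 25th percentile filter, with label, B code and last number as terms (residual degrees of freedom 4), Benjamini-Hochberg adjustment and a threshold of 0.05. Interactions were fitted separately. Standard errors and adjusted p-values come from limma; Python 3.11.15 did the rest. The fits were tested on simulated data: for the label, 42% of 2 log2 changes in single probe sets and 95% of 1 log2 changes in gene means were recovered. Only 100 features of each size were changed there, whereas the real label fit called 59621 of 168240 probe sets. The simulated shares therefore do not give the power of the real label fit. The number of arrays limits the precision.

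Members and lists were chosen with earlier results of these data known. The rule for named genes took all members, RELB, the PD-1 ligands and JAK2, measured genes between INSL6 and ERMP1, up to 10 with a difference of 1 log2 or more between LURAP1L and PLAA, and the 2 nearest outside each end. Within a gene it took the highest and lowest probe sets and those beside an edge. Exceptions are stated. Marker lists were fixed for Hodgkin, B, T, myeloid and fibroblast cells; 1 marker is not reported here. Alternatives covered the gene summary, the edge rule, quantile or median scaling, the filter, a variance trend, the covariates and each array left out.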

Additional observations from a re-analysis of the deposited data

Results flagged for a closer look

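Each group of 4 arrays was checked, for every member gene, for an array far from the other 3. Of 58 groups, 2 were marked, where chance marks about 1 in 20. KDM4C stood at 7.61 in replicate 3 of the arrays labelled induced, where the other 3 lay between 8.14 and 8.22, so the gap took up 0.869 of the group's range, above Dixon's critical value for 4 values. Without that array the KDM4C difference was smaller, -0.30 in place of -0.43, the smallest of its differences with 1 array left out. ACO1 stood at 9.43 in replicate 4 of the arrays labelled uninduced, with the other 3 between 9.54 and 9.56 (0.845 of the range). That group's whole range is small beside the ACO1 difference of -3.29.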

How the results depend on the processing

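The count of member probe sets higher in the arrays labelled induced fell from 72 to 46 when the filter was set at the median, which leaves fewer probe sets tested; the counts lower stayed within 1.5 times of 221 under every alternative run. With 1 array left out, 193 to 210 probe sets were lower and 69 to 71 higher, 20 to 21 gene means were lower and 4 higher, RELB differed by -0.16 to -0.06, and the 4 contrasts of the other codes gave 0 calls. With the codes' combination as a replicate block, 212 probe sets and 20 genes were lower and 72 and 4 higher. Across all fitted probe sets, arrays with the same number did not deviate together (correlations 0.034, -0.047, 0.004 and -0.014). Those arrays share both codes, and the correlations do not show whether they share anything else. Among 489 single gene values under the alternatives, 456 moved by less than the spread between arrays and 33 by more. The 33 came from taking the median signal of the probe sets in each array, only the probe sets past the filter, or the gene-level table. Testing gene means for the other codes was chosen after seeing the data. The mean of at least 1 group lay under the filter level of gene means for DOCK8, INSL6, LURAP1L and IFT74, where RMA compresses signals.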
